A study of Mus musculus with 20 samples.

Results

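The genes described here code for proteins of the node of Ranvier and of the paranode and juxtaparanode beside it. They are 29 of the 46517 genes in the deposited table of estimated read counts. They were chosen by symbol, through the Ensembl gene identifier without its version, and each matched 1 row. By textbook knowledge, 8 were treated as glial, 12 as neuronal, and 9 as made by both axon and glia or by many cell types (called shared below). The 20 libraries came from mouse white matter. In corpus callosum, the tract that joins the cerebral hemispheres, there were 6 libraries labelled Zdhhc9 knockout (KO_CCg) and 5 labelled wild type (WT_CCg). In optic nerve, the tract of retinal ganglion cell axons, there were 5 knockout libraries (KO_ON) and 4 wild-type libraries (WT_ON). Zdhhc9 codes for a palmitoyl acyltransferase. The kind of allele, the strain, the age and the sex are not in the labels, and the design text of the series calls the same mice knockdown. The callosum was dissected from frozen coronal sections, so that tissue beside the tract could enter a sample. Nothing in the labels says that each library came from a different animal, so p-values measure the spread between libraries, which may in part be technical.

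At a node, the axon membrane carries dense voltage-gated sodium channels, held by an ankyrin and spectrin scaffold, and here the action potential is renewed. On each side the myelin loops are sealed to the axon at the paranode by neurofascin on the glial side and a contactin and Caspr complex on the axon. Shaker-type potassium channels lie beyond this seal, in the juxtaparanode, and a matrix of lecticans, tenascin and link proteins made by glia surrounds the node. RNA of a channel made by a neuron is found mostly at its cell body, so that a tract sample holds little of it unless cell bodies are included.

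Hapln2 (hyaluronan and proteoglycan link protein at nodes, also called Bral1) and Bcan (brevican, a lectican) are neighbours on chromosome 3 in GENCODE M21, the annotation of GRCm38 used for gene positions. Bcan spans chr3:87987531-88000230 and Hapln2 chr3:88021750-88027583, both on the minus strand, with 21519 bases and 0 protein-coding genes between them. Their upstream sequences are shown because Hapln2 had the largest genotype difference of the 29 members in callosum, while the difference of its neighbour Bcan was small. The stretches come from RefSeq (GRCm38.p6), at chr3:88027584-88027761 for Hapln2 and chr3:88000357-88000606 for Bcan, both read on the minus strand. The Bcan stretch ends at the last base before the RefSeq start. For Hapln2 the last 72 bases before the RefSeq start were left out, because GENCODE M21 places them inside the gene. Capitals mark a match to the core of the oligodendrocyte factor MYRF.
Hapln2: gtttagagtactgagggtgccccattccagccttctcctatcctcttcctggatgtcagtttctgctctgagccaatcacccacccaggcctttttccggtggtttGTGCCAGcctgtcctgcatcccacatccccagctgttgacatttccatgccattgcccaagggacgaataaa
Bcan: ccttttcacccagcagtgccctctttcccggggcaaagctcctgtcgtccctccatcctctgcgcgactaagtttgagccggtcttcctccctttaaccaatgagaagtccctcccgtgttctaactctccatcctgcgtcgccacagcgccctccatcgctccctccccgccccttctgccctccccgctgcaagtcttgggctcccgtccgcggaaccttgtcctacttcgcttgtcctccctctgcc
The search covered 250 bases before the start on both strands. The MYRF core (CTGGCAC or CTGGTAC) was found in Hapln2 at -144 from the RefSeq start and not in Bcan; 5.93% of 32851 such mouse windows hold it. The SOX core (ACAAAG or ACAATG), held by 25.2% of windows, occurred 1 time in Hapln2, at -35 and so outside the printed stretch, and 0 times in Bcan. The GC box (GGGCGG), held by 32.7%, occurred 0 times in Hapln2 and 1 time in Bcan. GC content of the windows was 52.4% in Hapln2 and 62% in Bcan. Over the 23 members with a window in the table, 4 held a MYRF core, 10 a SOX core and 11 a GC box in at least 1 of their windows. These members had 40 windows, so counts per gene cannot be set beside the shares per window above. These matches describe letters and do not show binding.

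Library totals ranged from 15401130 to 26095622 estimated reads, and no pair of libraries was identical. Levels below are CPM, that is counts per library total with TMM scaling over the 20 libraries, and differences are log2 fold changes with their standard error (SE). For edgeR fits the SE was derived as the absolute log2 fold change divided by the square root of the F statistic. The targeted gene followed the labels: Zdhhc9 was at 40.8 to 56.0 CPM in KO_CCg against 153 to 201 in WT_CCg, and at 35.1 to 51.5 CPM in KO_ON against 115 to 150 in WT_ON. Myelin genes were abundant in every library, with 12 mature oligodendrocyte markers summing to 34013 to 90156 CPM in callosum and 65024 to 99943 CPM in optic nerve. The 12 neuron markers summed to 1399 to 5608 CPM in callosum and 402 to 738 CPM in optic nerve, and the neuronal nuclear gene Rbfox3 was at 30.8 to 136 and 0.652 to 4.84 CPM. Genes of neuronal cell bodies were thus measured in callosum in amounts that varied between libraries. In bulk tissue, fewer cells of a type and less RNA per cell cannot be told apart. The titles of 4 callosum libraries (KO_CCg_27, KO_CCg_29, WT_CCg_28 and WT_CCg_30) carry 2-digit numbers and the others longer ones; what this format stands for is not given in the sources used here. All 29 members passed the filter on low counts in each comparison. Gldn was near the floor, with 5 to 119 rounded reads per library. Hapln2 had 1348 to 11112.

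The difference between the tissues in wild-type mice was large for nearly all neuronal members and of either sign for the glial ones. Hapln2 was higher in optic nerve, the chondroitin sulfate proteoglycan gene Ncan was far lower, and the nodal sodium channel genes were lower by more than 2 log2 units. A gene was called here at an adjusted p under 0.05 (edgeR quasi-likelihood test, Benjamini-Hochberg over 16440 genes) with a log2 difference of 1 or more in either direction. Of all genes tested 26.2% were called, 13% higher and 13.2% lower in optic nerve. Of the 29 members 16 were called, 1 higher and 15 lower. The median log2 difference was -2.86 over the neuronal members, -0.45 over the glial ones, -0.33 over the shared ones and -0.03 over all genes.

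Among the glial members Hapln2 was at 268, 225, 131, 222 and 157 CPM in the 5 WT_CCg libraries and at 426, 462, 383 and 492 CPM in the 4 WT_ON libraries. Every optic nerve library lay above every callosum library, and Hapln2 rose by 1.14 (SE 0.21, edgeR adjusted p = 0.000166), the only member called higher. Ncan was at 144, 139, 203, 181 and 179 CPM in WT_CCg and at 13.1, 16.1, 26.4 and 39.8 CPM in WT_ON. It fell by 2.83 (SE 0.25, edgeR adjusted p = 1.28e-08), and no value of one tissue reached the other. Although listed as glial, Ncan was nearer in this to the median of the neuronal members (-2.86) than to that of the glial ones (-0.45). Which cells its RNA came from was not tested. Tnr, the tenascin that cross-links lecticans at the node, was at -1.02 (SE 0.17) and just past the size limit; under 8 alternatives, 4 of them leaving out 1 library (WT_CCg_28, WT_CCg_717652, WT_ON_700858 or WT_ON_717652), it was between -0.995 and -0.91 and not called. Lgi3, a secreted protein of oligodendrocytes that binds the Adam22 receptor family, was at -0.63 (SE 0.15, edgeR adjusted p = 0.00156), short of that size. Bcan (-0.22), Vcan (versican, -0.27), Omg (the oligodendrocyte myelin glycoprotein, -0.27) and Gldn (gliomedin, the clustering factor of peripheral nodes, -0.63 with SE 0.82) did not reach an adjusted p of 0.05.

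Of the 12 neuronal members 10 were called lower in optic nerve. Scn4b, a beta subunit of sodium channels, was at 64.8, 47.2, 106, 103 and 94.3 CPM in WT_CCg and at 2.72, 2.93, 5.86 and 2.18 CPM in WT_ON. It fell by 4.60 (SE 0.37, edgeR adjusted p = 3.47e-09). The alpha subunits followed, with Scn1a at -3.96 (SE 0.45), Scn2a at -3.73 (SE 0.44) and Scn8a, the main channel of mature nodes, at -3.65 (SE 0.39). Kcnab2, a beta subunit of juxtaparanodal potassium channels, was at -3.15, Cntnap2 (Caspr2) at -2.96 and the beta subunit Scn2b at -2.76. The nodal spectrin gene Sptbn4 (-1.80), the paranodal Caspr gene Cntnap1 (-1.31) and the potassium channel gene Kcna2 (-1.30) were lower by less. The exceptions were Kcna1, the partner of Kcna2, at -0.55 (SE 0.18, edgeR adjusted p = 0.0150) and Kcnq3, a nodal potassium channel gene, at 0.24 (SE 0.16, edgeR adjusted p = 0.217). Kcna1 was at 247, 163, 140, 173 and 133 CPM in WT_CCg and at 112, 133, 82.9 and 141 CPM in WT_ON, so the tissues overlapped. Kcnq3 was at 110.4, 84.8, 106, 91.7 and 70.4 CPM in WT_CCg and at 94.1, 129, 85.8 and 131 CPM in WT_ON. Although listed as neuronal, these 2 genes differed between the tissues by less than the other 10 in the values above. Of the 12 neuron markers 11 were called lower in optic nerve (median -2.70), with the same libraries; their part in the difference of the neuronal members was not tested. Other cell types also differed between the tissues. Of the fibroblast and meningeal markers 7 of 7 were called higher in optic nerve (median 6.09), with sums of 2551 to 4158 CPM in WT_ON and 37.7 to 81.4 CPM in WT_CCg. Of the microglia markers 5 of 7 were called higher (median 1.14; sums of 918 to 1084 and 427 to 508 CPM). Of the astrocyte markers 3 of 8 were called higher and 1 lower (median 0.44; sums of 8393 to 11084 and 3940 to 4783 CPM). Of the mature oligodendrocyte markers 2 of 12 were called higher and 0 lower (median 0.16). The part of these cell types in the differences of Hapln2, Ncan and the other members was not tested.

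Among the shared members Ank3 was at 588, 473, 633, 564 and 442 CPM in WT_CCg and at 190.0, 225, 178 and 252 CPM in WT_ON, with no overlap. Ank3 (ankyrin G, the scaffold of nodal channels) was at -1.35 (SE 0.13), the Lgi receptor gene Adam22 at -1.03 (SE 0.14) and Nfasc (neurofascin, with a glial paranodal and a neuronal nodal form) at -1.02 (SE 0.16), and all 3 were called lower. Nfasc and Adam22 lay at the size limit. Nfasc was between -0.997 and -0.90 and not called under 9 alternatives, 3 of them leaving out 1 library (WT_CCg_28, WT_CCg_717652 or WT_ON_717652). Adam22 was so under 4, 3 of them without WT_CCg_685232, WT_ON_700858 or WT_ON_701297. Cntn1 (contactin, the axonal partner of Cntnap1) was at -0.93 (SE 0.17), and was called without WT_ON_719857 (-1.04). Sptbn1, the common beta spectrin, was at 0.31 (SE 0.10, edgeR adjusted p = 0.0162), and Dlg1 at -0.33. The contactin gene Cntn2 (-0.07), Nrcam (-0.30) and the paranodal band 4.1 gene Epb41l3 (-0.14) did not pass. The counts are of messenger RNA of whole genes, so the forms of Nfasc could not be separated.

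In knockout libraries, which are other samples, the tissue comparison called 30.1% of all genes, and 16 members again, 1 higher and 15 lower. The medians were -3.14 over the neuronal, -0.10 over the glial and -0.53 over the shared members. Hapln2 rose by 2.02 (SE 0.20, edgeR adjusted p = 2.96e-08) in optic nerve against callosum. Scn4b fell by 5.54 (SE 0.35), and Ncan by 2.88 (SE 0.23). Tnr was at -1.06 (SE 0.15), and at -0.98 and not called without KO_ON_48038A7. Nfasc was at -0.53 (SE 0.14), under the size limit, and Cntn1 at -1.15 (SE 0.15), past it. Lgi3 was at -0.07 (SE 0.14).

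**Figure D1:**
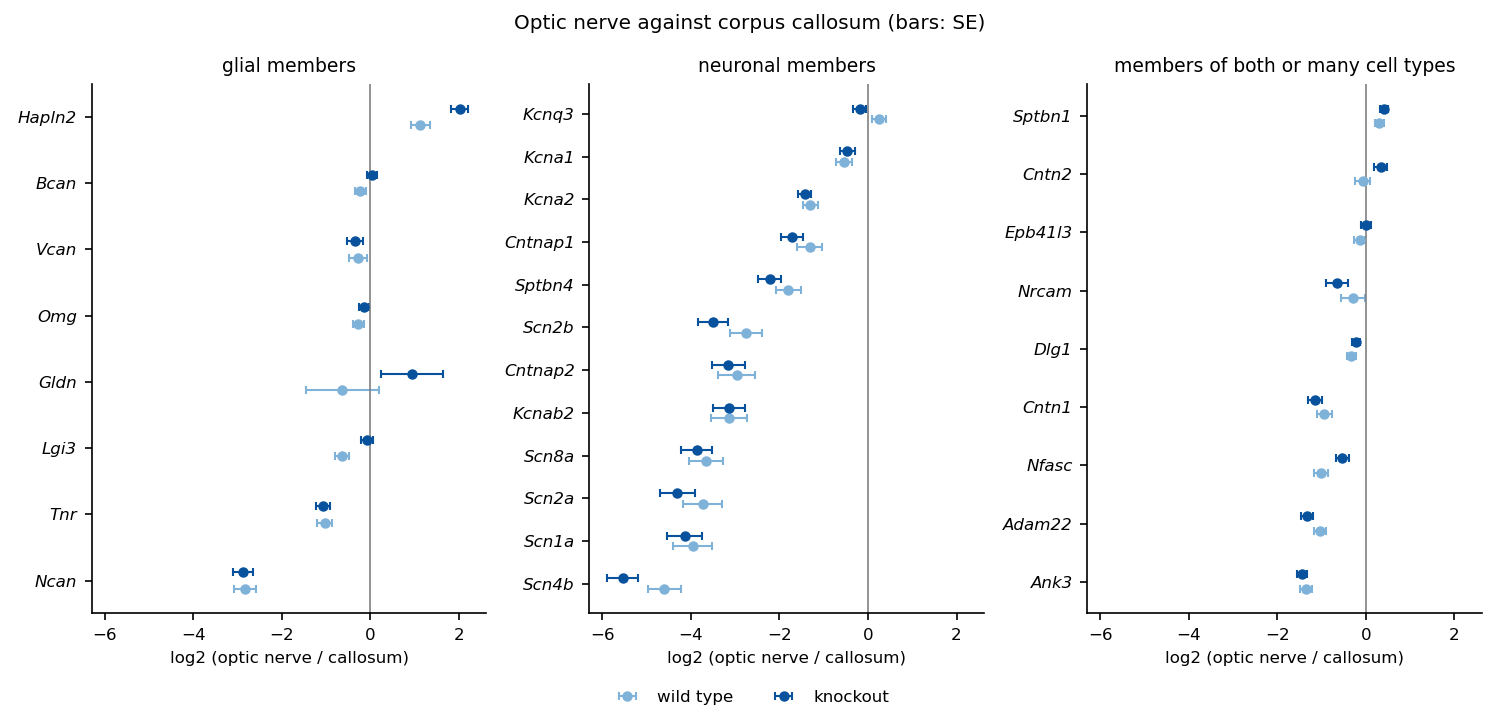
Log2 fold change of optic nerve over corpus callosum (x axis) for the 29 members (y axis), in 3 panels by class, in wild-type (light) and knockout (dark) libraries; bars are standard errors. Most neuronal members lie left of 0, down to -5.54 for Scn4b in knockout, and Hapln2 lies right of 0 in both genotypes, at 1.14 and 2.02.

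The genotype comparison in corpus callosum called 0 members with edgeR. Hapln2 stood lower in every knockout library than in every wild-type library. Of the neuronal members 11 of 12 had positive differences, while 6 of 8 glial members were negative. The shared members were split, 4 positive and 5 negative, and of all genes 47.5% were positive. Members were measured in the same libraries, so their signs are not independent. Of 15519 genes 6 passed an adjusted p of 0.05, which is 0.0387%. At an unadjusted p under 0.05 stood 11.7% of all genes (4.81% higher and 6.89% lower) and 11 of 29 members (7 higher and 4 lower). The 2 other tools gave different counts: DESeq2 called 2 members (Hapln2 lower, Scn4b higher) against 1.22% of genes, while 14 members and 18% of genes passed limma-voom with quality weights per sample. The 14 were Hapln2, Omg, Cntn2 and Epb41l3, lower, and 9 neuronal members and Nrcam, higher. Medians of the log2 difference were 0.66 over the neuronal, -0.13 over the glial and -0.03 over the shared members, beside -0.01 over all genes.

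Hapln2 had a lowest level of 58.7, a median of 89.2 and a highest level of 129 CPM in the 6 KO_CCg libraries. The 5 WT_CCg libraries stood at 268, 225, 131, 222 and 157 CPM. The groups did not overlap, by a margin of little more than 1 CPM between KO_CCg_29 (129.3) and WT_CCg_685232 (130.6), and Hapln2 was the only member with this pattern. Among all genes 0.696% had every knockout library below every wild-type library and 0.206% every one above. The log2 difference was -1.14 (SE 0.23), or 0.452 times the wild-type level, with an unadjusted p of 0.000271 and an edgeR adjusted p of 0.139. DESeq2 gave an adjusted p of 0.000840, limma-voom with sample quality weights 0.0135, and an edgeR fit of all 4 groups 0.0172. Without WT_CCg_685232 the difference was -1.27 with an edgeR adjusted p of 0.0455. Within the 2-digit libraries (KO_CCg_27 and KO_CCg_29 against WT_CCg_28 and WT_CCg_30) it was -1.25 (SE 0.29). Within those with longer numbers it was -0.99 (SE 0.24), so the sign was the same. Whether the sizes differed was not tested.

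Mature oligodendrocyte markers moved with Hapln2. All 12 had negative differences (median -0.55; 0 called by edgeR, 10 at an unadjusted p under 0.05), and their sum was 34013 to 66054 CPM in KO_CCg against 54038 to 90156 CPM in WT_CCg. Other glial lists had negative medians too, with 0 called by edgeR in each. All 7 microglia markers were negative (median -0.34, 5 at an unadjusted p under 0.05), and their sums did not overlap, with 338 to 409 CPM in KO_CCg and 427 to 508 CPM in WT_CCg. All 6 tested markers of newly formed oligodendrocytes (median -0.38, 3 at that level; sums of 1117 to 2082 and 1550 to 2473 CPM) and all 7 of precursors (median -0.26, 1 at that level; sums of 1041 to 1554 and 1249 to 1768 CPM) were negative. The part of these other lists in the Hapln2 difference was not tested. With the level of the mature oligodendrocyte markers in the edgeR fit as a covariate, an alternative added after the data were seen, Hapln2 was at -0.44 (SE 0.10, adjusted p = 0.496). With the neuron marker level it was at -0.80 (SE 0.16, adjusted p = 0.182), and with the striatal marker level at -0.96 (SE 0.36, adjusted p = 0.9996). Per 1000 CPM of mature oligodendrocyte markers, Hapln2 was at 1.89 ± 0.15 CPM (SD, n = 6; range 1.72 to 2.14) in KO_CCg and 2.72 ± 0.22 (SD, n = 5; range 2.42 to 2.98) in WT_CCg, 69.4% of wild type. The groups did not overlap on this ratio, as for 0.0258% of genes in this direction. Those were 4 genes, Hapln2, Zdhhc9, Ifi27l2a and Smtnl2, the last 2 named after their values were seen. Where marker sums of the genotypes overlapped, KO_CCg_717651 (57901 CPM) and KO_CCg_29 (66054 CPM) had 108 and 129 CPM of Hapln2, and WT_CCg_685232 (54038 CPM) and WT_CCg_7198587 (60295 CPM) had 131 and 157 CPM. This ratio was also added after the data were seen. In these few libraries with overlapping sums, Hapln2 was lower in knockout than in wild type. KO_CCg_29 (129 CPM) and WT_CCg_685232 (131 CPM) were close, at unlike sums (66054 and 54038 CPM). What made this difference was not tested. The other knockout libraries had sums of 34013 to 48913 CPM, below the wild-type minimum of 54038 CPM, with no wild-type library at a like sum. Within WT_CCg the ratio was 2.42 at the lowest sum (WT_CCg_685232) and 2.98 at the highest (WT_CCg_28, 90156 CPM). Whether the ratio depends on the sum was not tested. In optic nerve the same ratio was 3.98 to 5.31 in KO_ON and 4.60 to 5.16 in WT_ON, and the groups overlapped.

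The other glial members differed less. Omg was lowest at 101.2, with a median of 112 and a highest level of 124 CPM in KO_CCg, and stood at 166, 159, 123, 131 and 125 CPM in WT_CCg. The difference was -0.34 (SE 0.10, edgeR adjusted p = 0.290), and KO_CCg_29 (124.4 CPM) and WT_CCg_685232 (123.4 CPM) overlapped. Lgi3 was at 360.1 to 631 CPM in KO_CCg, with a median of 439, and at 615, 590.4, 453, 621 and 477 CPM in WT_CCg, a difference of -0.24 (SE 0.16). Set against the 12 oligodendrocyte markers its direction was the opposite of that of Hapln2: Lgi3 per 1000 marker CPM was at 8.39 to 11.5 in KO_CCg and 6.82 to 8.39 in WT_CCg, with the knockout minimum (8.393) just above the wild-type maximum (8.385). Of all genes 3.63% lay above in this way, and of the 29 members 2, Lgi3 and the neuronal member Scn4b (2.46 to 7.17 in KO_CCg and 0.569 to 1.95 in WT_CCg). Hapln2 was the 1 member below. The CPM of Lgi3 itself was not higher in KO_CCg, and the marker sums that divide it ran lower there. Bcan (-0.14), Vcan (-0.12), Ncan (0.12), Tnr (0.01) and Gldn (-0.08, SE 0.39) had unadjusted p-values of 0.265 or more. Bcan, the neighbour of Hapln2, was at 332 to 456 CPM in KO_CCg and at 354 to 492 CPM in WT_CCg.

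The neuronal members ranged from -0.17 for Kcna1 to 1.09 for Scn4b. Scn4b was at a lowest level of 83.7, a median of 179 and a highest level of 296 CPM in KO_CCg, and at 64.8, 47.2, 106, 103 and 94.3 CPM in WT_CCg. The 5 highest values were knockout libraries, and KO_CCg_719856 (83.7) lay among the wild type. The difference was 1.09 (SE 0.29, unadjusted p = 0.00286, edgeR adjusted p = 0.261). Within the 2-digit libraries it was 2.15 and within the longer numbers 0.53. Scn4b is known to be abundant in striatal projection neurons. Markers of those neurons moved with it: all 8 were positive (median 0.85; 0 called by edgeR, 8 at an unadjusted p under 0.05), with sums of 549.7 to 1449 CPM in KO_CCg and 323 to 721 CPM in WT_CCg. Among the libraries KO_CCg_27 was highest in both, and WT_CCg_30 lowest in both. With the striatal marker level as a covariate, added after the data were seen, Scn4b was at 0.09 (SE 0.12), while the median of the 12 neuronal members was 0.43.

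Scn1a was lowest at 18.4, with a median of 40.6 and a highest level of 65.0 CPM in KO_CCg, and at 14.9, 16.8, 36.0, 17.9 and 24.6 CPM in WT_CCg. The difference was 0.85 (SE 0.30, edgeR adjusted p = 0.380), and the groups overlapped, with KO_CCg_29 and KO_CCg_717651 below WT_CCg_685232. Cntnap1 ran from 49.0 to 137 CPM in KO_CCg, with a median of 111, and stood at 29.7, 44.3, 84.8, 65.5 and 86.6 CPM in WT_CCg, a difference of 0.74 (SE 0.30, edgeR adjusted p = 0.397). Only KO_CCg_29 lay within the wild-type range of Cntnap1. Cntnap2 ran from 30.2 to 71.8 CPM, with a median of 51.4, in KO_CCg and stood at 21.7, 24.7, 51.8, 28.9 and 41.3 CPM in WT_CCg, a difference of 0.60 (SE 0.25). Scn2a (0.78, SE 0.37), Scn8a (0.75, SE 0.35), Scn2b (0.70, SE 0.33), Sptbn4 (0.62, SE 0.30) and Kcnab2 (0.43, SE 0.38) had SEs of at least 0.3. Kcna2 (0.32, SE 0.15) and Kcnq3 (0.32, SE 0.14) were smaller and less spread. None of these passed the edgeR adjusted threshold.

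All 12 neuron markers were likewise positive in knockout callosum (median 0.63; 0 called by edgeR, 4 at an unadjusted p under 0.05), with sums of 1550 to 5608 CPM in KO_CCg and 1399 to 4044 CPM in WT_CCg. With their level as a covariate the median of the neuronal members was 0.17, with 11 of 12 positive. With the mature oligodendrocyte level the median was -0.04, with 4 of 12 positive. Within the 2-digit and longer numbers it was 0.89 and 0.49. Leaving out each library in turn gave 0.50 to 0.86, with 11 of 12 positive each time. Divided by the summed neuron markers, 0 of 29 members separated the genotypes, beside 0.0193% of genes above and 0.0902% below.

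Among the shared members Cntn2 was lowest at 620.2, with a median of 716 and a highest level of 986 CPM in KO_CCg, and at 1219, 1000.5, 839, 1156 and 808 CPM in WT_CCg. The difference was -0.39 (SE 0.16, edgeR adjusted p = 0.403), and the groups overlapped. Epb41l3 ran from 256 to 355 CPM in KO_CCg, with a median of 285, and stood at 407, 371, 327, 365 and 322 CPM in WT_CCg, a difference of -0.29 (SE 0.11, edgeR adjusted p = 0.388). Adam22 ran from 132 to 193 CPM, with a median of 151, in KO_CCg and stood at 143, 123, 152, 118 and 128 CPM in WT_CCg, a difference of 0.26 (SE 0.12, edgeR adjusted p = 0.419). Nrcam was at 0.48 (SE 0.29), Ank3 at 0.18, Cntn1 at 0.17, Dlg1 at -0.03, Sptbn1 at -0.07 and Nfasc at -0.10. Of 43 related genes (other channel subunits, spectrins, ankyrins, link proteins and adhesion molecules) 0 were called by edgeR and 7 higher and 4 lower stood at an unadjusted p under 0.05. Their median was 0.31, and 29 were positive. The smallest p-values were those of Kcnab1 (0.82), Kcna4 (0.90) and Sptb (0.69) among the positive, and Epb41l2 (-0.41), Lgi4 (-0.24) and Cldn11 (-0.51) among the negative.

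**Figure D2:**
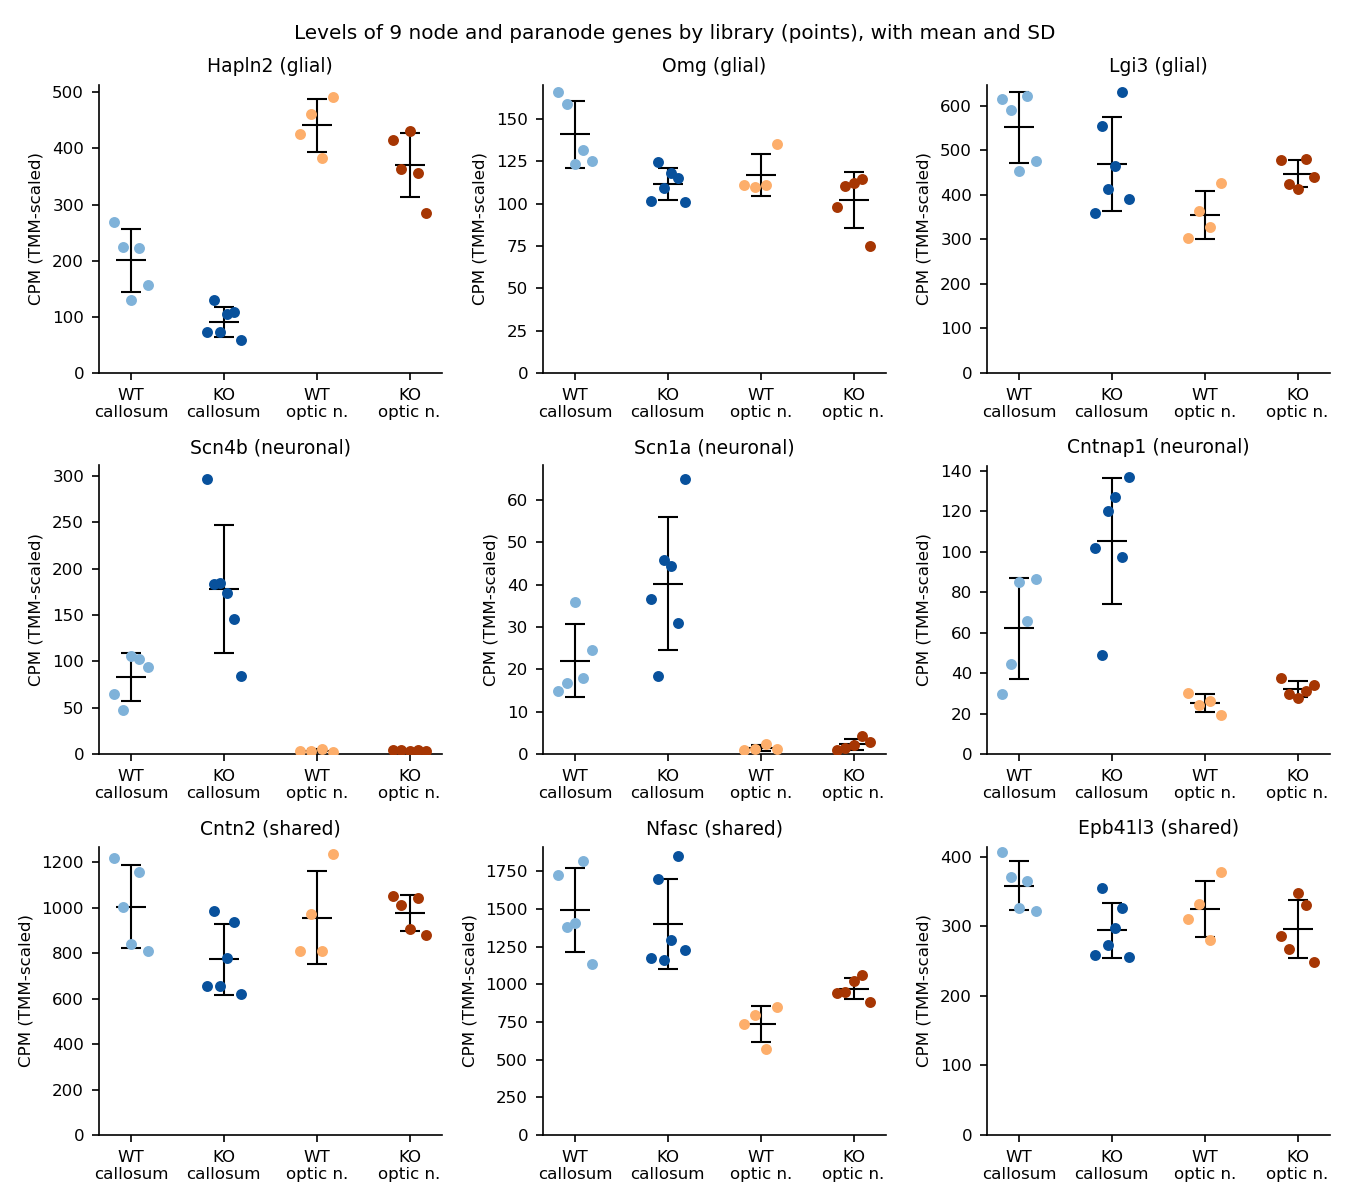
Level (CPM, TMM-scaled, y axis from 0) of 9 members in each library (points) of the 4 groups (x axis), with group mean and SD in black. Hapln2 in KO_CCg (58.7 to 129 CPM) lies below WT_CCg (131 to 268 CPM), both below optic nerve, and Scn4b and Scn1a are near the base line in optic nerve.

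**Figure D3:**
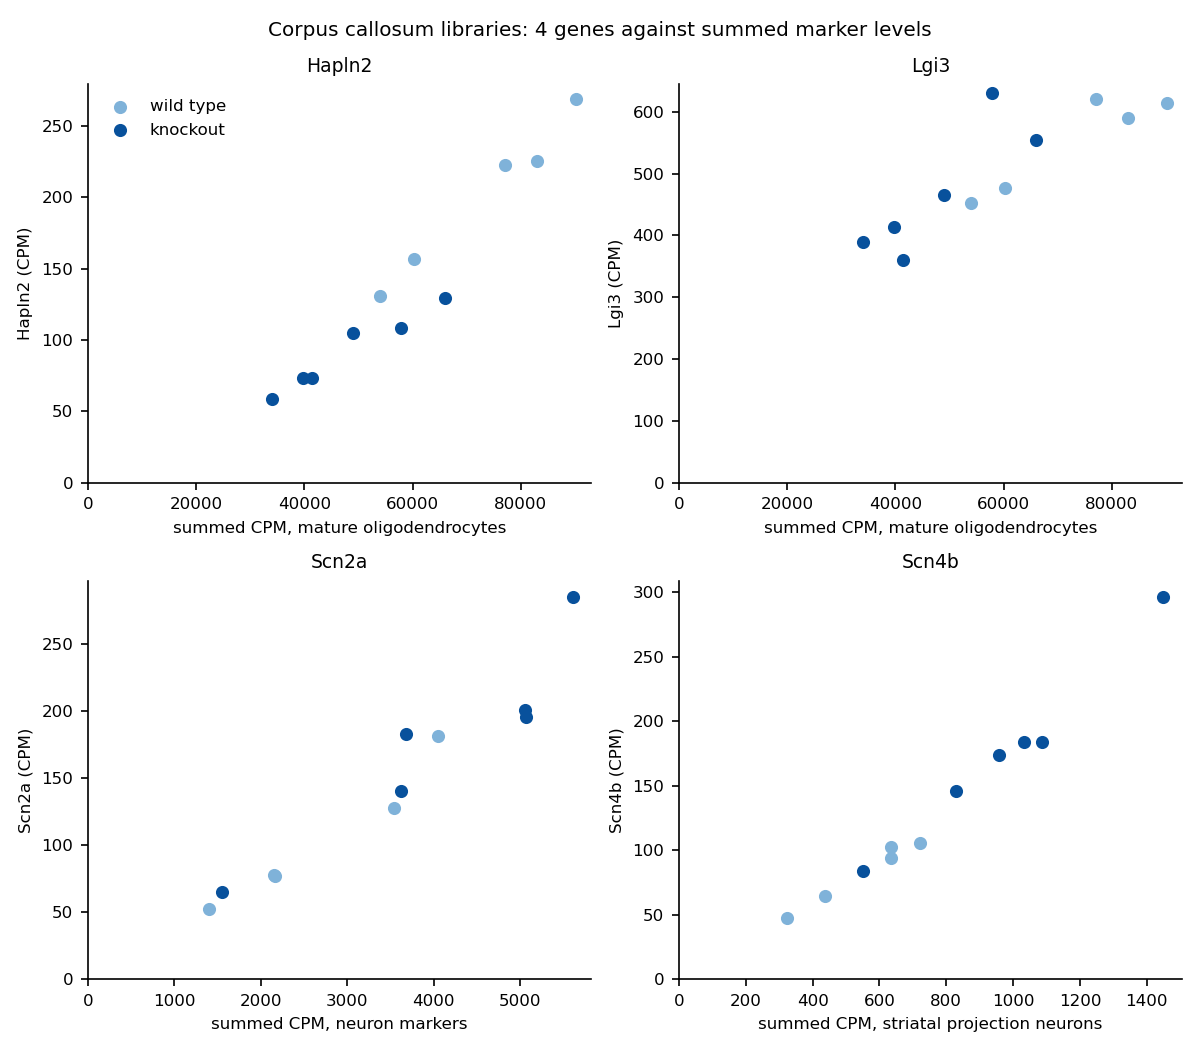
Levels (CPM, y axis) of Hapln2 and Lgi3 against summed mature oligodendrocyte markers, of Scn2a against summed neuron markers and of Scn4b against summed striatal markers (CPM, x axes) in the 11 callosum libraries, wild type light and knockout dark. Where marker sums overlap, the Hapln2 points of KO_CCg_717651 and KO_CCg_29 lie below those of WT_CCg_685232 and WT_CCg_7198587. KO_CCg_29 and WT_CCg_685232 are at nearly the same height. Scn4b points rise from 47.2 CPM in WT_CCg_30, which has the lowest striatal sum, to 296 CPM in KO_CCg_27, which has the highest. Whether the ratio of Scn4b to that sum differs between the genotypes was not tested.

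The members were also described by how they varied with neuron content in the callosum, with genotype held in the model. The slope on the neuron marker level in corpus callosum is the log2 change of a gene per 1 log2 unit of the mean neuron marker level, and this fit was added after the data were seen. Of the sodium channel members Scn1a, Scn2a, Scn8a and Scn2b rose with the neuron markers, as did the spectrin gene Sptbn4, and 3 glial members, 3 shared members and Kcna1 fell. Of all genes 35.6% had such a slope at an edgeR adjusted p under 0.05 (18.5% up and 17.2% down), and of the members 18 of 29 did, 11 up and 7 down. Of the neuronal members 8 rose: Kcnab2 by 1.20 (SE 0.13), Scn2a by 1.12 (SE 0.10), Scn8a by 1.08 (SE 0.09), Scn2b by 0.99, Cntnap1 by 0.91, Sptbn4 and Scn1a by 0.87 and Cntnap2 by 0.69. In the same fit Kcna1 fell by 0.41 (SE 0.07). Scn4b (0.08, SE 0.25), Kcnq3 (-0.03, SE 0.11) and Kcna2 (0.24, SE 0.10) had no called slope. Scn2b and Scn4b lie 8324 bases apart on chromosome 9, with 0 protein-coding genes between them, and had slopes of 0.99 and 0.08. The 8 striatal markers had slopes of 0.04 to 0.17, all positive, with 0 called by edgeR and 0 at an unadjusted p under 0.05. A joint rise of the striatal and the general neuron markers was thus not detected with genotype held, and their independence was not tested. The highest neuron marker sum was in WT_CCg_685232 among WT_CCg (4044 CPM) and in KO_CCg_719856 among KO_CCg (5608 CPM). Their striatal sums were the highest (721 CPM) and the lowest (549.7 CPM) of these groups.

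Among the glial members Hapln2 fell by 0.55 (SE 0.12), Vcan by 0.49 (SE 0.09) and Omg by 0.19 (SE 0.06). Ncan rose by 0.28 (SE 0.07), the only glial member with a called rise. Bcan (-0.14), Tnr (-0.20), Lgi3 (-0.28) and Gldn (-0.36) had no called slope. Among the shared members Nrcam rose by 0.82 (SE 0.10) and Cntn1 by 0.27 (SE 0.07), while Cntn2 fell by 0.36, and Epb41l3 and Dlg1 by 0.23 each. Ank3 (-0.02, SE 0.08), Adam22 (0.07), Sptbn1 (-0.13) and Nfasc (-0.29) had no called slope. Of these calls that of Omg was lost with DESeq2 size factors, with no filter, with the number format, and without any 1 of 7 libraries (KO_CCg_29, KO_CCg_693451, KO_CCg_719856, WT_CCg_28, WT_CCg_30, WT_CCg_685232 or WT_CCg_7198587), at -0.25 to -0.13. Without KO_CCg_29 the calls of Ncan (0.30), Cntn1 (0.22), Epb41l3 (-0.23) and Dlg1 (-0.25) were lost, and without WT_CCg_28 those of Epb41l3 (-0.20) and Dlg1 (-0.15). Epb41l3 was also not called without WT_CCg_7198587 (-0.18). With the number format as a covariate Vcan (-0.37), Ncan (0.17), Cntn1 (0.28) and Dlg1 (-0.21) were not called. Of the 12 mature oligodendrocyte markers 0 rose and 9 fell with the neuron level. CPM values are shares of 1 total, and which of the opposing slopes follow from that was not tested. On the slope on the neuron marker level in corpus callosum the libraries at the ends had a large part: without WT_CCg_28 and KO_CCg_29, the 2 farthest from the median neuron level, 917 of all genes and 8 members were called, 7 neuronal members and Nrcam, all up. Without KO_CCg_29 alone 2852 genes were called.

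**Figure D4:**
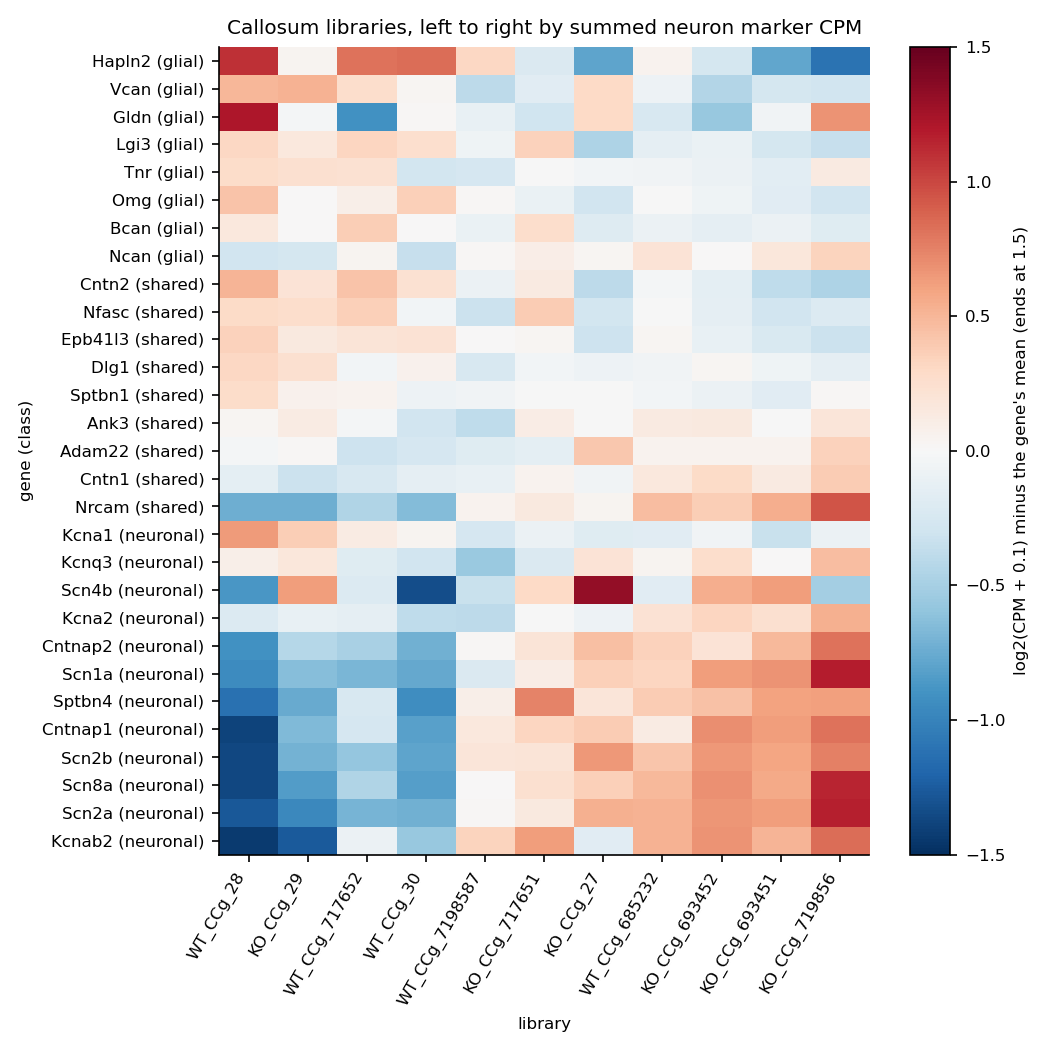
Log2(CPM + 0.1) of each member (rows, by class and slope) minus its mean over the 11 callosum libraries (columns, left to right by summed neuron markers); red is higher and blue lower, and the colour ends at 1.5. The lower rows turn from blue to red from left to right, while Hapln2 in the first row turns the other way and Scn4b follows no such order.

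In optic nerve, where neuron markers were low, 0 members were called between the genotypes by edgeR, DESeq2 or limma-voom with sample quality weights. Nfasc had higher values in every knockout library than in every wild-type library, and Lgi3 and Cntnap1 had positive differences of about 0.3. Of 15556 genes 2 passed edgeR (0.0129%), with 0.225% for DESeq2. At an unadjusted p under 0.05 stood 5.48% of genes and 4 members, all positive; 2.83% of genes were positive and 2.64% negative at that level. Medians were 0.20 over the neuronal, 0.02 over the glial and 0.02 over the shared members, beside 0.01 over all genes. The lowest edgeR adjusted p of any member was 0.845.

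Nfasc was at 946, 951, 1021, 1062 and 881 CPM in KO_ON and at 738, 794, 573 and 852 CPM in WT_ON. The groups did not overlap, as for 1.14% of genes in this direction, and 0.926% lay below. The difference was 0.38 (SE 0.13, unadjusted p = 0.0117). Lgi3 was at 478, 425, 413, 481 and 440.3 CPM in KO_ON and at 303, 364, 328 and 426 CPM in WT_ON, a difference of 0.32 (SE 0.11, unadjusted p = 0.0139); WT_ON_719857 lay inside the knockout range. Set against the mature oligodendrocyte markers, which summed to 65024 to 89323 CPM in KO_ON and 82695 to 99943 CPM in WT_ON, both separated the genotypes. Nfasc was at 11.6 to 13.6 per 1000 marker CPM in KO_ON and 6.88 to 8.93 in WT_ON, and Lgi3 at 4.68 to 6.77 and 3.67 to 4.26. Of all genes 2.19% lay above in this way and 0.109% below. Set against the summed neuron markers, 0 members separated the genotypes, beside 0.0707% of genes above and 0.212% below. The ratio of Lgi3 to the mature oligodendrocyte markers lay above wild type in both tissues, as for 3.63% of genes in callosum and 2.19% in optic nerve. In callosum the margin was narrow, and the marker sums that divide Lgi3 ran lower in knockout. Without that scaling the difference of Lgi3 was negative in callosum and positive in optic nerve, and neither was called by edgeR. Some title numbers occur in both tissues, so the tissues may not be independent. The 12 mature oligodendrocyte markers had a median of -0.17 in optic nerve, with 0 called by edgeR and 1 at an unadjusted p under 0.05. Their part in the ratio was not tested.

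Among the neuronal members Cntnap1 was at 37.5, 29.5, 27.7, 31.3 and 34.3 CPM in KO_ON and at 30.1, 24.3, 26.3 and 19.5 CPM in WT_ON, a difference of 0.33 (SE 0.12, unadjusted p = 0.0204). Scn8a was at 11.3, 8.14, 13.3, 11.6 and 10.9 CPM in KO_ON and at 7.06, 6.94, 10.9 and 5.41 CPM in WT_ON, a difference of 0.53 (SE 0.21, unadjusted p = 0.0249). In both genes the groups overlapped. Scn4b (0.14, SE 0.29) and Scn1a (0.69, SE 0.45), the members with the largest positive values in callosum, were at a few CPM here, with unadjusted p-values of 0.636 and 0.155. Hapln2 was at 416, 364, 432, 355 and 286 CPM in KO_ON and at 426, 462, 383 and 492 CPM in WT_ON. The difference was -0.27 (SE 0.13, unadjusted p = 0.0670), with overlap. Gldn was at 1.45 (SE 0.98), from 1 library: KO_ON_719856 had 6.80 CPM and the other 8 optic nerve libraries 0.201 to 0.784 CPM, and without it Gldn was at -0.59. The remaining members lay between -0.21 and 0.43. Of the 43 related genes 0 were called by edgeR and 3 stood at an unadjusted p under 0.05, with a median of 0.09; Ank1 (0.34), Sptan1 (0.22) and Hapln3 (0.82) had the smallest p-values among the positive.

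**Figure D5:**
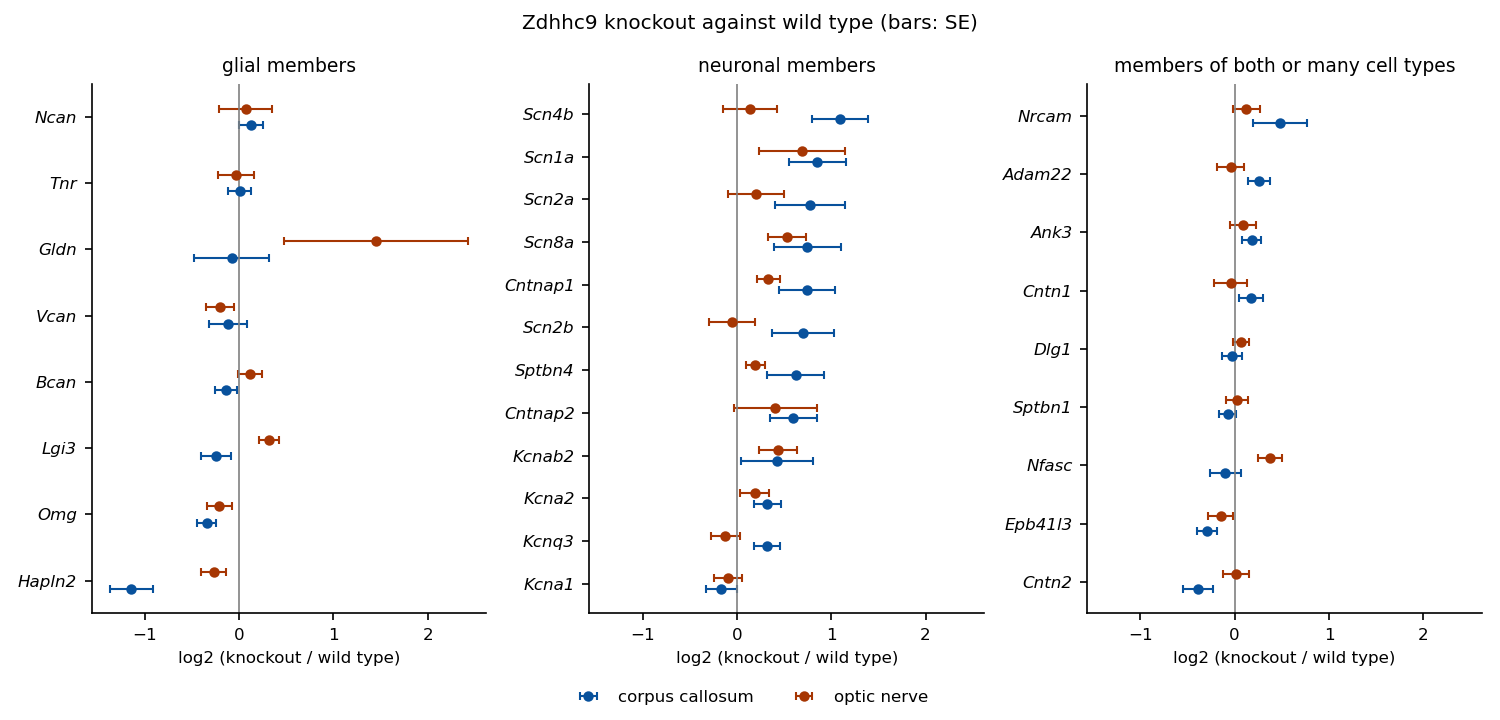
Log2 fold change of knockout over wild type (x axis) for the 29 members (y axis), in 3 panels by class, in corpus callosum (blue) and optic nerve (brown); bars are standard errors. Hapln2 in callosum is the farthest left at -1.14, the neuronal members in callosum reach 1.09, and Gldn in optic nerve (1.45) has the widest bar.

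Whether the genotype difference itself differed between the tissues was tested in a fit of all 20 libraries. The edgeR and limma-voom tests called 0 of 16440 genes and DESeq2 0 of 16419, and 0 members (0% of genes). At an unadjusted p under 0.05 stood 6.83% of genes (2.37% positive and 4.46% negative) and 4 members (1 positive and 3 negative). Hapln2 was lower in knockout by 0.89 log2 units more in callosum than in optic nerve, a value of -0.89 (SE 0.29, unadjusted p = 0.00660, edgeR adjusted p = 0.725). Lgi3 was at -0.57 (SE 0.20), Nfasc at -0.49 (SE 0.21) and Scn4b at 0.94 (SE 0.44), all with an edgeR adjusted p of 0.725. A difference between the tissues in the response of any member was therefore not detected at this number of libraries. Medians were 0.31 over the neuronal, -0.20 over the glial and -0.11 over the shared members, beside -0.03 over all genes.

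Spread within groups differed between the classes. The coefficient of variation of the neuronal members had a median of 30.2% in KO_CCg and 39.6% in WT_CCg, against 17.8% and 17.0% for the glial and 14.8% and 14.5% for the shared members. In optic nerve the medians were 17.95% (KO_ON) and 26.4% (WT_ON) for the neuronal, 15.6% and 19.4% for the glial, and 14.1% and 14.8% for the shared members. The coefficient was highest for Gldn in KO_ON, at 171%. The SE of the genotype difference in callosum ran from 0.14 to 0.38 for the neuronal members and from 0.09 to 0.29 for the shared ones. That of the glial member Gldn, which was near the floor, was above both ranges.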

How the data were processed

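Messenger RNA was measured in 20 mouse libraries, prepared with a kit that keeps the strand, per the labels' protocols. The deposited values are estimated counts (expected counts) of reads per gene, per the table's name and values, with totals that differ between libraries; 30.1% of the values above 0 were whole within a tolerance of 1e-06. Per the submitters' processing notes the genome build is mm10. The annotation, the version of the quantifier and how transcripts became genes were not given in the sources used here. Groups were taken from tissue and genotype in the labels. Estimated counts were rounded, low genes removed (filterByExpr, a count of 10 and a total of 15 at least) and TMM factors computed. Genotypes were compared within each tissue by the edgeR quasi-likelihood test (R 4.3.3, edgeR 4.0.16), and tissues and the difference of effects in a fit of all 4 groups. P-values were Benjamini-Hochberg adjusted over all genes tested, with a threshold of 0.05 and, between tissues, a log2 difference of 1 or more in either direction. Marker levels used as covariates are means of log2 CPM with a prior count of 2. Simulated counts were used to test the scripts. The biological coefficient of variation was 0.237 in callosum and 0.202 in optic nerve.

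All 29 members were named, with values by library for up to 4 per class and comparison with the smallest p, and up to 3 related genes per direction. The members, lists, markers and tests were chosen with earlier results of these data known. Alternatives were DESeq2 (1.42.0), limma-voom with sample quality weights (limma 3.58.1), DESeq2 size factors, upper quartile factors, no filter, a filter of 1 CPM, a joint fit, covariates for marker levels and the number format of the titles, subsets by that format, the replicate block, and fits with 1 library left out. The oligodendrocyte and striatal covariates, the ratios to marker sums and the slope on neuron markers were chosen after seeing the data. Gene positions come from GENCODE M21: 46005 of 46517 identifiers matched without the version, 27555 with it. Upstream sequences come from RefSeq (GRCm38.p6); protein sequences were not used here.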

Additional observations from a re-analysis of the deposited data

Results flagged for a closer look

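In 8 of 116 groups of libraries (29 members in 4 groups) 1 library lay far from the others by Dixon's test at the 95% level, and chance flags about 1 group in 20. Gldn stood apart in WT_CCg_28 (2.009 CPM; others 0.387 to 0.820) and in KO_ON_719856 (6.798 CPM; others 0.201 to 0.784). Omg stood apart in WT_ON_719857 (135.3 CPM; others 109.6 to 110.9). In WT_ON_717652 there were 3 such neuronal members: Cntnap2 at 9.221 CPM (others 1.98 to 3.21), Scn2a at 12.4 CPM (others 5.97 to 6.59) and Scn2b at 21.03 CPM (others 10.7 to 12.5). The same library had the highest neuron marker sum of WT_ON, 738 CPM against 410.5 to 446 CPM in the other 3; its part in these values was not tested. Kcna1 stood apart in KO_CCg_29 (203.7 CPM; others 126 to 153), the knockout callosum library with the lowest neuron marker sum (1550 CPM). Cntn1 stood apart in KO_ON_717651 (176.6 CPM; others 111.0 to 118). The test of a different genotype effect in the tissues called 0 genes with edgeR.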

How the results depend on the processing

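In corpus callosum the number of genes called between genotypes depended on the tool and the libraries, against 6 genes and 0 members with edgeR: 175 genes and 2 members with DESeq2, 2786 and 14 with limma-voom and quality weights, and 41 and 1 (Hapln2) in the joint fit. It was 3 genes with the mature oligodendrocyte covariate, 2 with the striatal one, 10 with the number format, and 0 and 2 within 2-digit and longer numbers. Leaving out 1 callosum library gave 2 to 41 genes and 0 to 1 members: 41 and Hapln2 without WT_CCg_685232, 3 without KO_CCg_27 or KO_CCg_29, and 2 without KO_CCg_693451, KO_CCg_719856, WT_CCg_28, WT_CCg_30, WT_CCg_717652 or WT_CCg_7198587. In optic nerve DESeq2 called 35 genes against 2. The test of a different effect in the tissues called 0 to 1 genes when 1 library was left out, 1 without KO_ON_717651. The slope on the neuron marker level in corpus callosum was called in 2945 genes with the number format as a covariate, in 917 genes and 8 members without the 2 farthest libraries, and in 2852 (without KO_CCg_29) to 5963 genes when 1 library was left out. The causes were not tested.

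Hapln2, Omg, Scn4b, Kcna2, Kcnq3, Ank3, Epb41l3 and Adam22 kept their sign in callosum under each alternative run. The other members changed sign under at least 1, as follows (log2 differences, none called with edgeR). With the mature oligodendrocyte covariate: Bcan 0.06465, Vcan 0.2407, Ncan -0.1759, Lgi3 0.162, Cntnap1 -0.03185, Cntnap2 -0.1271, Sptbn4 -0.002179, Scn1a -0.04883, Scn2a -0.3051, Scn8a -0.2363, Scn2b -0.1863, Kcna1 0.2267, Kcnab2 -0.3724, Nfasc 0.2505, Cntn1 -0.07939, Cntn2 0.04641, Nrcam -0.3262, Sptbn1 0.01831 and Dlg1 0.1938. With the neuron covariate: Vcan 0.1729, Ncan -0.04792, Gldn 0.1953, Kcna1 0.1004, Kcnab2 -0.2837, Nfasc 0.07543, Cntn1 -0.003617, Nrcam -0.02037, Sptbn1 0.006214 and Dlg1 0.1084. With neuron level and number format: Bcan 0.06099, Vcan 0.1005, Lgi3 0.04218, Kcna1 0.1304, Kcnab2 -0.107, Nfasc 0.2125, Cntn1 -0.00581, Sptbn1 0.01548 and Dlg1 0.1013. Within 2-digit numbers: Vcan 0.1701 and Cntn1 -0.005039. Within longer numbers: Tnr -0.02848, Gldn 0.4218 and Dlg1 0.03809. With limma-voom: Tnr -0.04429 and Gldn 0.04806. With upper quartile factors Tnr was -0.01406, with the number format Gldn was 0.03703, and with the striatal covariate Gldn was 0.3882 and Dlg1 0.02421. When 1 library was left out, Tnr ran from -0.04025 to 0.08437, Gldn from -0.2867 to 0.3638 and Dlg1 from -0.08525 to 0.0503. In optic nerve Gldn was -0.211 with limma-voom, -0.2083 with the oligodendrocyte covariate and -0.5857 to 1.748 when 1 library was left out. Between wild-type tissues Cntn2 ran from -0.1842 to 0.02223 when 1 library was left out, and was 0.03185 without the 2-digit callosum libraries.

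Some numbers in the titles occur in both tissues, and the labels do not say that they mark an animal. Deviations of same-numbered libraries from their group means had correlations of 0.018, -0.153 and 0.134 in knockout and -0.053 in wild type over 16440 genes. Such correlations between different tissues cannot settle whether a number marks an animal. The main fits did not pair these libraries, and fits with a block follow. The titles WT_CCg_7198587 and WT_ON_719857 are close and were treated as different numbers. With the number as a replicate block, the knockout tissue comparison called 4410 genes and 15 members against 4950 and 16, with Tnr at -0.92 under the size limit. With a random replicate block (limma-voom) it called 4918 and 16, the wild-type one 4291 and 15 (Nfasc at -0.997), and the difference of effects 0. The genotype comparisons within a tissue share no number between groups and had no block. Depth limits Gldn, with 5 to 31 reads in all libraries but KO_ON_719856, and in optic nerve Scn1a, Scn4b and Cntnap2, with as few as 23, 46 and 52 reads.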
